A study of Mus musculus with 22 samples.

Results

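The genes described here are 10 markers of macrophages: the surface receptors Adgre1 and Csf1r, the actin-binding protein gene Aif1, the scavenger and mannose receptors Cd163 and Mrc1, the complement genes C1qa, C1qb and C1qc, and the arginine-using enzymes Arg1 and Nos2. They were taken by name, as a fixed set of receptors, C1q chains and polarization markers, from the arrays of mouse bladders exposed to the carcinogen N-butyl-N-(4-hydroxybutyl)nitrosamine (BBN). All 10 were among the 22911 genes that the arrays measured with a gene symbol, through 13 probes, and all 10 were among the 17404 genes tested.

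Macrophages are phagocytes that live in most tissues, the bladder wall included, and are joined during inflammation by cells arising from blood monocytes. They depend on signalling through the receptor that Csf1r encodes. They are also a main tissue source of C1q, the recognition molecule of the classical complement pathway, which is built from the products of C1qa, C1qb and C1qc. Arg1 and Nos2 encode enzymes that compete for arginine and are read in mouse macrophages as markers of opposed activation states, Arg1 after interleukin-4 and Nos2 after interferon gamma and bacterial products, although epithelial cells and neutrophils can make both.

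RNA of 22 bladders was hybridised to 1-colour Agilent arrays, 1 per sample, and the study asked what Trp53 mutation in basal or luminal bladder cells adds to BBN. Of the 19 BBN arrays, 12 came from mice with 1 mutant Trp53 allele, the LSL-RFP reporter and tamoxifen-activated CreERT2 under the Krt5 promoter (basal cells) or the Upk2 promoter (luminal cells): 3 were Krt5-Cre R270H and 4 Krt5-Cre R172H, 2 were Upk2-Cre R270H and 3 Upk2-Cre R172H. Of the rest of the BBN mice, 3 were Trp53 het, titled Trp53+/- but listed with the R270H allele and with neither Cre nor tamoxifen, and 2 each were Krt5-Cre and Upk2-Cre, with LSL-RFP, tamoxifen and no mutant Trp53 allele. The 3 normal mice were wild type and had no BBN and no tamoxifen. All mice were 8 months old, and BBN was given in the drinking water for 24 weeks from 2 months of age. Both promoters drive Cre in epithelium, not in macrophages. The tissue label was bladder tumor for all 19 BBN samples and normal bladder urothelium for the 3 normal ones. The extraction protocol nevertheless names whole bladders for each sample. BBN bladders below are these tumor-labelled samples. The normal RNA was not urothelium alone, since fibroblast and smooth muscle markers were well above background on all 3 normal arrays. That does not show that normal and BBN samples held the same mix of tissue. In BBN samples fibroblast markers were 5 lower of 5 and smooth muscle markers 5 higher of 5.

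Several features of the arrays bear on every value below. Levels are log2 spot signals minus the 75th percentile of the same array, so that 0 is that percentile, and a level says nothing about the level of another gene read by another probe. Scanner model 1 read 11 BBN arrays, with 42.4 to 57.2% of spots well above background, and scanner model 2 read the other 8 BBN arrays and the 3 normal arrays, with 56.3 to 63.2%. The normal arrays filled 1 slide of their own, so slide and absence of BBN cannot be told apart. On 11 arrays, all 3 normals and 8 BBN, the recorded sex did not match Xist and the Y-linked genes. In 2 pairs of BBN arrays the labels give the same animal code, and nothing else says which samples are separate animals, so p-values measure the spread between these samples.

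BBN bladders carried far more Arg1 signal than normal bladders, somewhat more C1qc and less Cd163, while the receptors that mark macrophages in general, Adgre1 and Csf1r, differed by less than their spread. In limma, 2 of the 10 genes were higher and 1 was lower at a Benjamini-Hochberg adjusted p of 0.05, against 23.7% of all tested genes called higher, 19% called lower and 42.7% called in either direction. The share of these genes that was called, 3 of 10, lay near that of the array as a whole and was not tested against it. Their median log2 difference was 0.07, and the median over all tested genes was 0.13. In whole bladders, more or fewer cells of a type and more or less RNA per cell cannot be told apart.

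**Figure D1:**
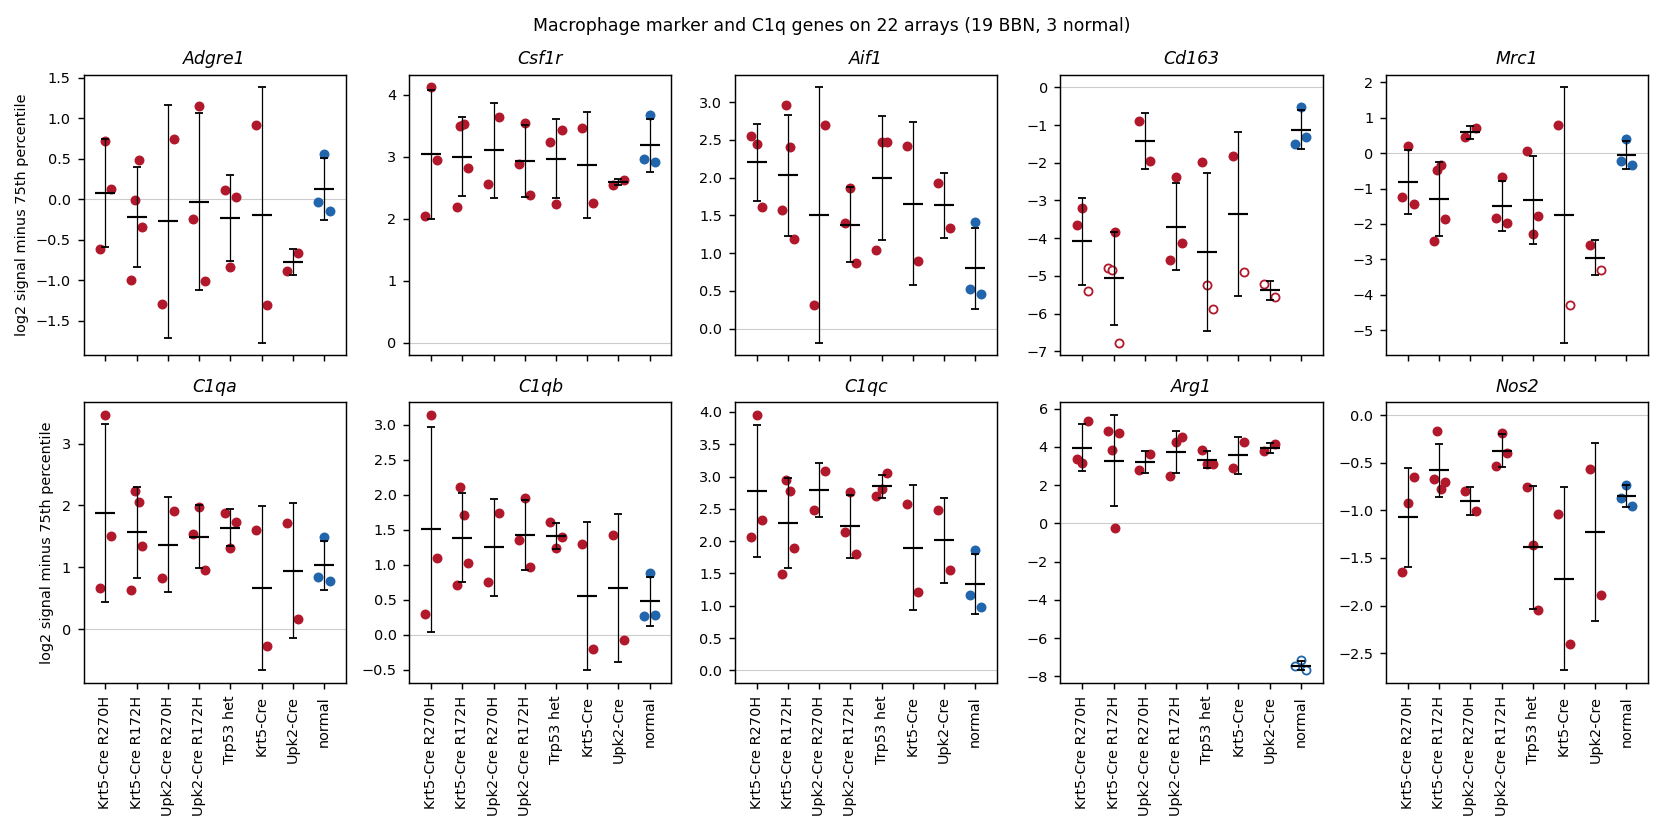
Level of each of the 10 genes (log2 signal minus the 75th percentile of the array) on 22 arrays in the 7 BBN groups (red) and the normal group (blue). Points are arrays, open where the probe was not well above background, and bars are the group mean and SD; Arg1 separates all 19 BBN arrays from the 3 normal arrays, and Cd163 is open on 9 BBN arrays.

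Adgre1 and Csf1r, read as the general markers of the lineage, come first. Adgre1 encodes the adhesion receptor most used to identify mouse macrophages. Its level ran from −1.31 to 1.15 with a median of −0.24 on the 19 BBN arrays, against −0.03, 0.56 and −0.15 on the normal arrays. The normal values lay inside the BBN range, and the difference of −0.36 had a 95% interval from −1.41 to 0.68 (limma adjusted p = 0.572). A second Adgre1 probe was well above background on 1 of 22 arrays and gives no further measurement.

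Csf1r, the receptor for the growth factors encoded by Csf1 and Il34, lay between 2.04 and 4.12 with a median of 2.88 on BBN arrays, against 2.97, 3.67 and 2.91 on normal arrays. Here too the normal values fell within the BBN range. The log2 difference was −0.25 with an interval from −1.12 to 0.61 (limma adjusted p = 0.635), and the second Csf1r probe, measured on all 22 arrays, gave −0.20.

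Aif1, which encodes the calcium-binding protein IBA1 of macrophages and microglia, had levels from 0.31 to 2.96 with a median of 1.86 on BBN arrays, against 0.52, 1.41 and 0.46 on normal arrays. On 12 of the 19 BBN arrays it lay above all 3 normals, but the difference of 0.98 did not pass the test (95% interval −0.03 to 1.98, limma adjusted p = 0.107). Without Upk2-Cre R270H replicate 1, the lowest BBN array at 0.31, the difference was 1.15 and passed (adjusted p = 0.0390).

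Cd163 and Mrc1, which mark resident and tissue-repair macrophages, lay lower in BBN bladders on most arrays. Cd163 encodes the scavenger receptor that takes up haemoglobin bound to haptoglobin. Its level ran from −6.77 to −0.90 with a median of −4.57 on BBN arrays, against −1.50, −0.53 and −1.33 on normal arrays. The groups overlapped at 1 array, Upk2-Cre R270H replicate 1 at −0.90, and the other 18 BBN arrays lay below every normal array. The log2 difference was −2.79 with an interval from −4.41 to −1.17 (limma adjusted p = 0.00829).

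The size of this difference rests partly on signals within background, since it was −1.21 after normexp background correction (adjusted p = 0.0158). The Cd163 probe was well above background on 10 of 19 BBN arrays, 4 of 11 on scanner model 1 and 6 of 8 on scanner model 2, and on all 3 normal arrays. With the scanner as a block the difference was −1.98 and no longer passed (adjusted p = 0.0779), while among the arrays of scanner model 2 alone it was −2.48 and passed (adjusted p = 0.0261). Leaving out normal replicate 2, the highest normal array, also ended the call (−2.49, adjusted p = 0.0559). Leaving out the 8 BBN arrays whose sex-linked genes went against the label did not (−2.51, adjusted p = 0.0356). A second Cd163 probe was well above background on 1 of 22 arrays.

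Mrc1, the mannose receptor CD206, had levels from −4.29 to 0.80 with a median of −1.45 on BBN arrays, against −0.22, 0.40 and −0.35 on normal arrays. On 13 BBN arrays it was below all 3 normals and on 3 it was above them. The difference was −1.24 with an interval from −2.79 to 0.32 (limma adjusted p = 0.182). The 3 high arrays were both Upk2-Cre R270H arrays and Krt5-Cre replicate 1 at 0.80, and without that Krt5-Cre array the difference was −1.60 and passed (adjusted p = 0.0195). A scanner term in the model left a difference of −0.19 (adjusted p = 0.863), and on scanner model 2 alone it was −0.81 (adjusted p = 0.156).

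The C1q genes tended upwards to unequal degrees, and 1 of the 3 passed the test. C1qa, C1qb and C1qc encode the A, B and C chains that together form the C1q molecule, and they lie next to each other on chromosome 4. The 250 bases upstream of the C1qb and C1qc starts are shown because the 3 genes varied together between bladders, as given below; the sequences are from RefSeq, build GRCm38.p6, minus strand, C1qb at chr4:136886201-136886450 and C1qc at chr4:136892915-136893164. Capitals mark matches, on either strand, to GAGGAA, the purine-rich core of the site bound by the macrophage factor PU.1, or to GGAAGT, an ETS-family core.
C1qb: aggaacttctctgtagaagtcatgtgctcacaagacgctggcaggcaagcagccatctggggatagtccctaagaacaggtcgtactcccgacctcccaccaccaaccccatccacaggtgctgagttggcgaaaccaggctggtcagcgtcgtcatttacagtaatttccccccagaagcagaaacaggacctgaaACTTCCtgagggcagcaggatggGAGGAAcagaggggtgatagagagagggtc
C1qc: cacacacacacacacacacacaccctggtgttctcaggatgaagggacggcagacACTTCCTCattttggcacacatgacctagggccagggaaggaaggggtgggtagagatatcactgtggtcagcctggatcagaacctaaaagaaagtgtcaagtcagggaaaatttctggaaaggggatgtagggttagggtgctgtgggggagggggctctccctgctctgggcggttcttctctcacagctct

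The C1qb stretch holds GAGGAA with its first base 30 bases before the start and GGAAGT, as its complement ACTTCC, 53 bases before it. In C1qc the complements ACTTCC and TTCCTC overlap, 195 and 193 bases before the start. GAGGAA occurs in 23.3%, GGAAGT in 19.7% and both in 6.26% of 32851 mouse promoter stretches of the same length, so such matches are common and describe these letters only. Among other members, the stretch of Mrc1 also held both, that of Aif1 held GAGGAA only and that of Cd163 held neither. No stretch was at hand for C1qa.

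C1qc lay between 1.22 and 3.95 with a median of 2.49 on BBN arrays, against 1.17, 1.87 and 0.98 on normal arrays. On 15 of the 19 BBN arrays it was above all 3 normals, and no BBN array was below them. The difference was 1.07 with an interval from 0.23 to 1.90 (limma adjusted p = 0.0386).

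The C1qc call lay close to the threshold. It was lost, with adjusted p up to 0.177, without Upk2-Cre R270H replicate 2 (log2 difference 1.02), Krt5-Cre replicate 1 (0.97), Upk2-Cre replicate 1 (1.0), normal replicate 1 (0.98) or normal replicate 3 (0.89). It was also lost with the slide as a random block (1.05, adjusted p = 0.126), with labelled sex added to the model (0.94, adjusted p = 0.127) and without the BBN arrays that went against that label (1.08, adjusted p = 0.0862). Median scaling (0.79, adjusted p = 0.141), quantile normalization (1.06, adjusted p = 0.0560) and normexp correction (0.95, adjusted p = 0.0656) ended the call as well. With the scanner as a block it was 1.32 and passed (adjusted p = 0.0367), as it did on scanner model 2 alone (1.13, adjusted p = 0.0226).

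C1qb had levels from −0.20 to 3.14 with a median of 1.3 on BBN arrays, against 0.27, 0.88 and 0.28 on normal arrays. It exceeded all normals on 14 of 19 BBN arrays, with a difference of 0.69 (interval −0.31 to 1.70, limma adjusted p = 0.247). C1qa ran from −0.28 to 3.46 with a median of 1.54 on BBN arrays, against 0.84, 1.49 and 0.77 on normal arrays, and its difference was 0.33 (interval −0.74 to 1.40, adjusted p = 0.616).
The lowest BBN values of both genes came from Krt5-Cre replicate 2, and the highest from Krt5-Cre R270H replicate 2.

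Arg1 showed a change of another order. Arginase 1 splits arginine into urea and ornithine, the precursor of polyamines and proline. Its level on BBN arrays was −0.22 at the lowest, 3.78 at the median and 5.37 at the highest, against −7.46, −7.17 and −7.68 on the normal arrays. The probe was well above background on all 19 BBN arrays and on none of the normal arrays, and the groups did not overlap, as for 13.6% of all tested genes in the upward direction.

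The normal levels of Arg1 were therefore treated as bounds. Each normal array was set at the lowest signal of any spot well above background there, a convention and not a strict limit. On that basis the BBN mean of 3.57 ± 1.19 (SD, n = 19) was at least 499-fold higher than the normal mean (limma adjusted p = 6.00e-08). The measured normal mean was −7.44 ± 0.26 (SD, n = 3), and the fitted difference of 11.02 rests on signals within background. Each of the 7 BBN groups exceeded the normal group, by at least 392-fold in Upk2-Cre R270H and by at least 660-fold in Krt5-Cre R270H. A single BBN array, Krt5-Cre R172H replicate 3, stood below the rest at −0.22, with the next array at 2.47.

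Nos2, the inducible nitric oxide synthase, did not follow Arg1. Its level ran from −2.40 to −0.17 with a median of −0.78 on BBN arrays, against −0.87, −0.73 and −0.95 on normal arrays, and the probe was above background on all 22 arrays. The difference was −0.19 with an interval from −0.85 to 0.47 (limma adjusted p = 0.641). Its sign turned with the scanner as a block (0.18), on scanner model 2 alone (0.15) and after normexp background correction (0.10).

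**Figure D2:**
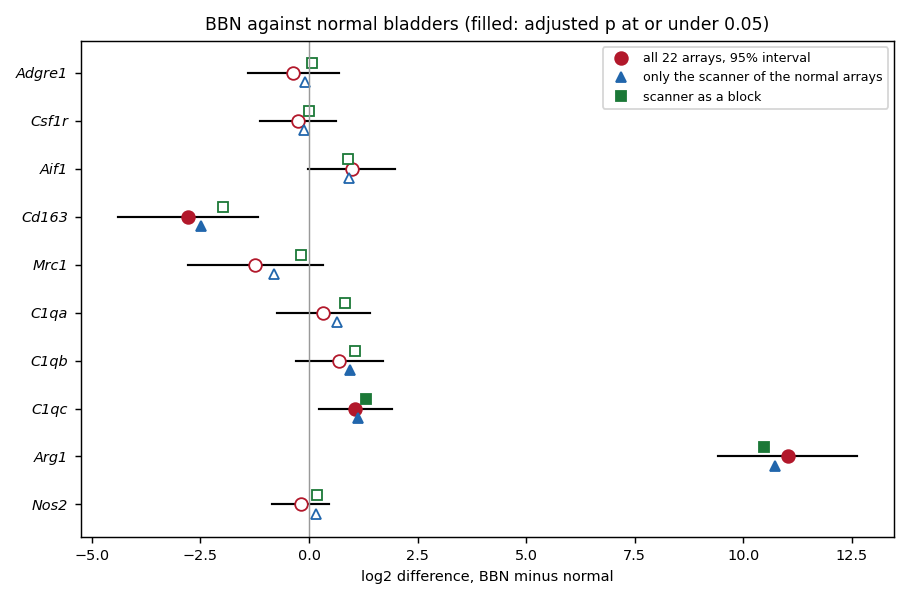
Log2 difference, BBN minus normal, for each of the 10 genes with its 95% interval over all 22 arrays (circles), on the scanner of the normal arrays only (triangles) and with the scanner as a block (squares). Filled symbols passed an adjusted p of 0.05; Arg1 lies near 11, Cd163 is filled without the block only, and C1qc and Arg1 are filled in all 3 settings.

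Set against the normal bladders 1 group at a time, the 7 BBN groups gave 13 calls over the 10 genes and 7 groups, against 26.1% called over all genes and groups. All 7 comparisons share the 3 normal arrays. Arg1 was called in every group, and accounts for 7 of the 13 calls. Krt5-Cre R270H had 3 calls among the 10 genes (30.1% of all genes), Krt5-Cre R172H 2 (32.5%), Upk2-Cre R270H 1 (19.3%), Upk2-Cre R172H 1 (24.4%), Trp53 het 3 (31.0%), Krt5-Cre 1 (17.5%) and Upk2-Cre 2 (28.1%).

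Among the 7 BBN groups, the means of Cd163 spanned the widest range of the 10 genes, in part through signals within background. Cd163 averaged −1.43 ± 0.75 in Upk2-Cre R270H (SD, n = 2, both arrays well above background), against a normal mean of −1.12 ± 0.52 (SD, n = 3). It was well above background on all 3 Upk2-Cre R172H arrays (mean −3.70 ± 1.16), on 2 of 3 Krt5-Cre R270H arrays (−4.08 ± 1.16) and on 1 of 2 Krt5-Cre arrays (−3.36 ± 2.17). It was so on only 1 of 3 Trp53 het arrays (−4.36 ± 2.10) and 1 of 4 Krt5-Cre R172H arrays (−5.06 ± 1.23), and the sizes and order of these means are uncertain to that extent. Upk2-Cre, at −5.38 ± 0.25 (n = 2), was not well above background on either array and was at least 9.17-fold lower than normal (limma adjusted p = 0.0106).

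Cd163 was also called lower in Krt5-Cre R172H (log2 difference −3.94, limma adjusted p = 0.00477), Trp53 het (−3.24, adjusted p = 0.0226) and Krt5-Cre R270H (−2.96, adjusted p = 0.0352), and these sizes too include signals within background. Upk2-Cre R172H (−2.57, adjusted p = 0.0723) and Krt5-Cre (−2.23, adjusted p = 0.183) did not pass, and Upk2-Cre R270H differed by −0.31 (interval −2.68 to 2.07, adjusted p = 0.875). Mrc1 had the same first and last BBN groups, 0.58 ± 0.19 in Upk2-Cre R270H (SD, n = 2) and −2.95 ± 0.49 in Upk2-Cre (SD, n = 2), with the normal mean of −0.06 ± 0.40 (SD, n = 3) second in the order.

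C1qc was called in Trp53 het (2.85 ± 0.18, SD, n = 3; log2 difference 1.51, limma adjusted p = 0.0355) and in Krt5-Cre R270H (2.78 ± 1.02, SD, n = 3; difference 1.44, adjusted p = 0.0442), against a normal mean of 1.34 ± 0.47 (SD, n = 3). All 7 BBN means of C1qc were above the normal mean, down to 1.90 ± 0.96 in Krt5-Cre (SD, n = 2). C1qb likewise had its lowest mean in the normal group (0.48 ± 0.35, SD, n = 3) and its highest in Krt5-Cre R270H (1.51 ± 1.47, SD, n = 3). For C1qa, Krt5-Cre at 0.66 ± 1.33 (SD, n = 2) and Upk2-Cre at 0.94 ± 1.1 (SD, n = 2) were below the normal mean of 1.03 ± 0.39 (SD, n = 3), and the other 5 BBN groups were above it.

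Adgre1 and Csf1r were both lowest in Upk2-Cre and highest in normal bladders. The Csf1r means spanned only 2.58 ± 0.05 in Upk2-Cre (SD, n = 2) to 3.10 ± 0.77 in Upk2-Cre R270H (SD, n = 2) among the BBN groups, with 3.18 ± 0.42 in normal bladders (SD, n = 3). Aif1 means ran from 1.38 ± 0.49 in Upk2-Cre R172H (SD, n = 3) to 2.20 ± 0.51 in Krt5-Cre R270H (SD, n = 3), all above the normal mean of 0.79 ± 0.53 (SD, n = 3). The Arg1 means of the BBN groups lay close together, from 3.22 ± 0.59 in Upk2-Cre R270H (SD, n = 2) to 3.97 ± 1.22 in Krt5-Cre R270H (SD, n = 3).

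The order of the BBN groups did not hold up against the spread within them for any of these genes. A moderated F test of any difference among the 7 BBN groups called 0 of the 10 genes, with a smallest adjusted p of 0.808 for Cd163 and 0 of them at an unadjusted p under 0.05. Over all tested genes it called 0 as well (0%). No neighbours in the order of any gene can therefore be called different.

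The comparisons of Trp53 mutation within BBN bladders called 0 of the 10 genes throughout in limma. For Krt5 mutants (R270H and R172H, 7 arrays) over Krt5-Cre (2 arrays) 0.0115% of all genes were called, and for Upk2 mutants (5 arrays) over Upk2-Cre (2 arrays) 0.00575%. At an unadjusted p under 0.05 they gave 1 and 2 of the 10 genes. In the first, Nos2 was higher by 0.90 (interval 0.05 to 1.74, adjusted p = 1.0).

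In the second, Cd163 differed by 2.82 (interval 0.63 to 5.01) and Mrc1 by 2.50 (interval 0.40 to 4.59), each with an adjusted p of 0.777. The 5 Upk2 mutant arrays had Cd163 levels of −0.90 and −1.96 with R270H and −4.57, −2.38 and −4.14 with R172H, against −5.21 and −5.56 in Upk2-Cre. Neither Upk2-Cre signal was well above background, both R270H arrays were read on scanner model 1 and the 3 R172H arrays on scanner model 2, and with the scanner as a block the count of calls stayed at 0. The mutant effect on Cd163 under Krt5, −1.22, went the other way, and the difference between the effects under the drivers was −4.04 (interval −7.06 to −1.01, limma adjusted p = 0.998). It was the 1 of the 10 genes with an unadjusted p under 0.05 there, where 0% of all genes were called.

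Krt5 mutants over Upk2 mutants gave 0 calls (0.00575% of all genes) and 1 gene at an unadjusted p under 0.05, again Cd163, at −2.01 (interval −3.56 to −0.46, adjusted p = 0.886). R270H over R172H gave 0 calls (0% of all genes), with Cd163 at 1.63 (interval 0.08 to 3.17, adjusted p = 0.482) the 1 gene at an unadjusted p under 0.05. All R270H arrays were read on scanner model 1. The R172H arrays were read on scanner model 2 except Krt5-Cre R172H replicates 1 and 2, so allele and scanner can hardly be told apart. All 4 mutant groups over the other BBN groups gave 0 calls (0% of all genes) and 2 genes at that level, Nos2 at 0.72 (interval 0.20 to 1.23, adjusted p = 0.539) and Mrc1 at 1.25 (interval 0.04 to 2.47, adjusted p = 0.620). Trp53 het over the Cre groups gave 0 calls (0% of all genes) and 0 genes at an unadjusted p under 0.05, with C1qc at 0.90 (interval −0.13 to 1.92, adjusted p = 1.0).

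Arg1 differed little in any of these comparisons, for example by 0.06 between Krt5 mutants and Krt5-Cre (interval −2.01 to 2.13) and by −0.07 between all mutants and the other BBN groups (interval −1.32 to 1.19). The intervals of the general markers were narrower: Csf1r differed by 0.21 between all mutants and the other BBN groups (interval −0.46 to 0.89) and Adgre1 by 0.29 (interval −0.53 to 1.11).

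Across the 19 BBN arrays most of these genes varied together, and Arg1 did not. How often other tested genes varied together on these arrays was not tested. The shared variation is therefore not shown to be particular to macrophage markers. Of 45 pairs, 20 had a Pearson correlation with an adjusted p at or under 0.05 (permutation test with 100000 resamples, two-sided, adjusted over the 45 pairs), and 0 of the negative ones did. C1qa and C1qb were the closest pair, with r = 0.98 and Spearman rho = 0.98 (both at the smallest permutation p of 1e-05; adjusted p = 9.00e-05 for r). Without the 2 arrays farthest from the median r was 0.97, and within scanner models 1 and 2 it was 0.99 and 0.93.

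C1qc followed both, with r = 0.91 to C1qa (rho = 0.84, 0.81 without the 2 farthest arrays, 0.94 within each scanner model) and r = 0.89 to C1qb (rho = 0.85, 0.78 without them, 0.93 and 0.90 within the scanner models), each at an adjusted permutation p of 9.00e-05 for r. The C1q genes also followed Csf1r. For C1qa and Csf1r r was 0.84 and rho 0.87 (adjusted permutation p = 1.50e-04 for both), with 0.77 without the 2 farthest arrays, 0.87 within scanner model 1 and 0.77 within scanner model 2. Adgre1 and Csf1r gave r = 0.88 and rho = 0.86 (adjusted permutation p = 9.00e-05 and 1.12e-04), with 0.90, 0.88 and 0.97 under the same checks.

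**Figure D3:**
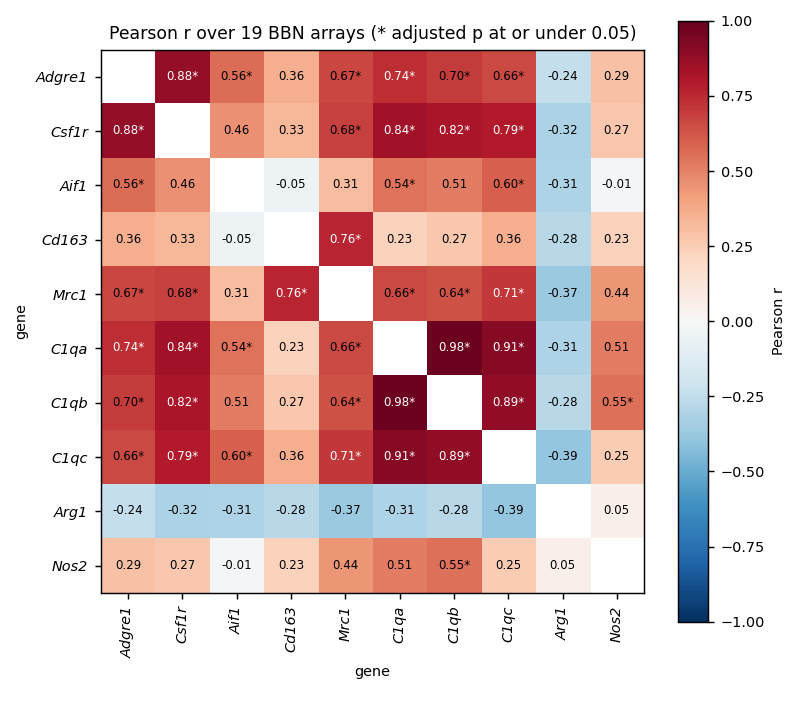
Pearson correlation (colour and number) between the 10 genes over the 19 BBN arrays, with an asterisk where the permutation p adjusted over 45 pairs is at or under 0.05. The C1q genes, Csf1r, Adgre1 and Mrc1 form a block of positive values, Cd163 joins it through Mrc1 only, and the Arg1 row runs from −0.39 to 0.05 with 0 asterisks.

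Cd163 was tied to Mrc1 alone, with r = 0.76 and rho = 0.76 (adjusted permutation p = 0.00125 and 0.00163), 0.68 without the 2 farthest arrays and 0.74 and 0.82 within the scanners. Its correlation with Csf1r was 0.33 (rho = 0.32, adjusted permutation p = 0.260 and 0.263), with 0.36 without the 2 farthest arrays and 0.16 and 0.65 within the scanners. Since Cd163 was well above background on 10 of the 19 BBN arrays, its correlations rest partly on signals within background. Mrc1 was in 6 of the 20 pairs and so linked Cd163 to the others. Aif1 was in 3 pairs, of which those with Adgre1 and C1qa had adjusted Spearman p-values of 0.0549 and 0.0508.

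Arg1 was in 0 of the 20 pairs. Its r ran from −0.39 with C1qc (rho = −0.52, adjusted permutation p = 0.174 and 0.0549; −0.55 and −0.47 within the scanners) to 0.05 with Nos2 (rho = 0.27, adjusted permutation p = 0.851 and 0.329). Nos2 was in 1 pair, with C1qb at r = 0.55 (adjusted permutation p = 0.0337), but rho was 0.40 (adjusted p = 0.172) and r within scanner model 2 was 0.22. That pair did not hold within both scanners.

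**Figure D4:**
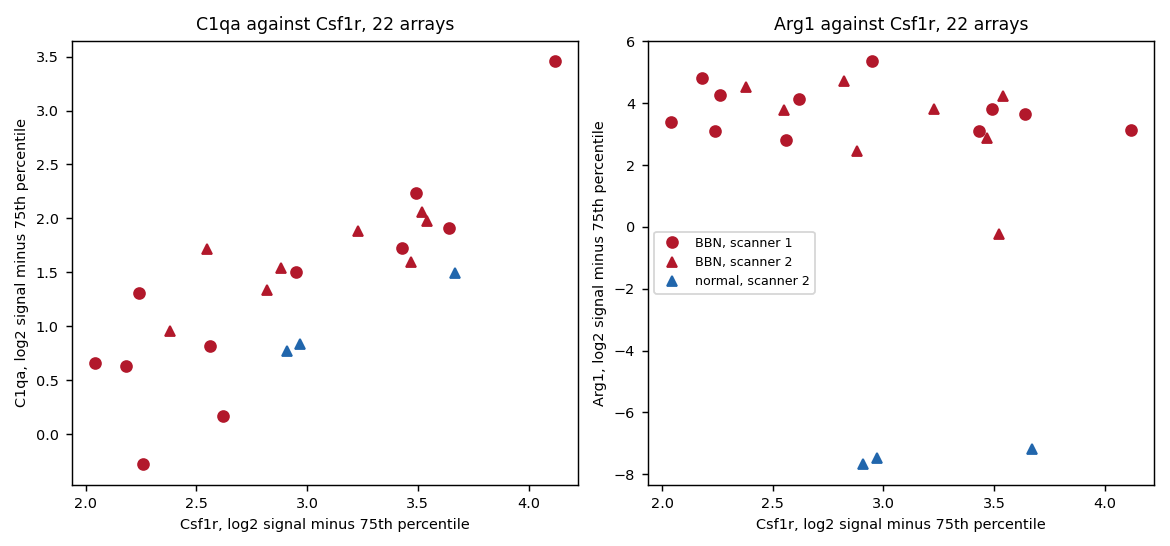
Level of C1qa (left) and Arg1 (right) against Csf1r (log2 signal minus the 75th percentile) on 22 arrays, red for BBN and blue for normal, circles for scanner model 1 and triangles for scanner model 2. C1qa climbs with Csf1r over the BBN arrays (r = 0.84), and Arg1 does not (r = −0.32). Arg1 lies between 2.47 and 5.37 apart from 1 BBN array at −0.22 and the 3 normal arrays below −7.

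The genes outside the set whose levels were most like each member over the 19 BBN arrays are given as a description without a test. For C1qa and C1qb the closest was Pld4, a phospholipase D family exonuclease of myeloid cells, with r = 0.94 and 0.92. The high-affinity Fc receptor gene Fcgr1 (r = 0.90 and 0.88) and the Fc receptor gamma chain gene Fcer1g (r = 0.90 and 0.89) completed the 3 closest of each. C1qc was closest to Vcam1, Parvg and Fcer1g (r = 0.90, 0.90 and 0.89), and Csf1r to Tmem37, Pld4 and Ptpro (r = 0.90, 0.89 and 0.89).

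Adgre1 was closest to Ptpro, Fndc1 and Cysltr1 (r = 0.89, 0.86 and 0.86). Aif1 was closest to Tlr12, to the class II antigen-presenting gene H2-Ab1 and to Slamf8 (r = 0.90, 0.90 and 0.89). Cd163 was closest to Slc6a2, Akap12 and Clec10a, the last a lectin of macrophages and dendritic cells (r = 0.92, 0.87 and 0.85). These values rest partly on signals within background, since Cd163 was well above it on 10 of the 19 BBN arrays and Slc6a2 on 11. Mrc1 was closest to Glipr2, Thbs3 and Adgra2 (r = 0.89 for each).

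The genes closest to Arg1 were Serpinb1c, Adgrf4 and Serpinb1a, with r = 0.85, 0.84 and 0.84 but rho of 0.63, 0.68 and 0.67. The lowest Arg1 array, Krt5-Cre R172H replicate 3, weighs in r more than in rho. For Nos2 the closest was Ly6f (r = 0.92), with r = 0.96 within scanner model 1 and 0.01 within scanner model 2, followed by Tas2r109 and Kcns1 (r = 0.91 and 0.90).

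Other genes of mononuclear phagocytes were called higher more often than lower in BBN bladders. Of 32 such genes, 13 were higher and 2 lower, 46.9% in all and so near the 42.7% of all tested genes, and 17 did not pass; their median difference was 0.93, or 0.62 with the 4 genes not above background on any normal array put at their bound. Spp1, the secreted phosphoprotein osteopontin, had a log2 difference of 6.32 (limma adjusted p = 1.07e-05). Fcgr4, an activating Fc receptor, rose by 3.69 (adjusted p = 8.96e-06). Ly6c2, a marker of inflammatory monocytes, rose by 1.83 (adjusted p = 4.79e-04). Ctsk, the collagen-cutting protease cathepsin K, fell by 2.90 (adjusted p = 3.92e-04). The other lower gene was Mertk (−1.70, limma adjusted p = 0.0104), above background on 12 of the 19 BBN arrays. Cd68, above background on all arrays, was among the higher genes (1.31, adjusted p = 0.00340).

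Of 12 macrophage growth factor and chemokine genes, 5 were higher and 1 lower, with a median of 0.78. This was 50%, against 42.7% of all tested genes. Ccl4, a chemokine for monocytes, rose by 2.58 on the log2 scale (limma adjusted p = 0.00104, 2 of 3 normal arrays above background), and Cx3cl1, the ligand of the receptor Cx3cr1, by 1.59 (adjusted p = 0.00296). Csf2, the growth factor GM-CSF, was well above background on 9 of the 19 BBN arrays and on no normal array (adjusted p = 6.54e-04). The mean over all BBN arrays, with dim ones at their measured signals, was 1.84-fold above the normal bound. Csf2ra, a chain of its receptor, fell by 1.14 (adjusted p = 0.00171). Csf1 itself was at 0.09 ± 0.60 in BBN bladders and 0.65 in normal bladders and did not pass.

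The proteases that act next to C1q went the other way from C1qc. Of 25 complement genes beyond C1q, 3 were higher and 8 lower, 44.0% in all against 42.7% of all tested genes, with a median of 0.11, or 0.05 with 3 genes at their bound. C1ra fell by 2.47 on the log2 scale (limma adjusted p = 0.00216) and C1s1 by 2.36 (adjusted p = 0.00172), the proteases that associate with C1q to form the first component. Cr1l, a membrane regulator of complement, fell by 0.99 (adjusted p = 7.63e-04). C6, of the membrane attack complex, was higher (limma adjusted p = 3.47e-04), but above background on 6 of the 19 BBN arrays and on no normal array. Its fitted difference of 3.07 therefore has no exact size. The other higher genes were C3 (2.32, limma adjusted p = 0.00745), above background on all arrays, and Hc (0.96, adjusted p = 0.0391). Hc was above background on 2 of the 19 BBN arrays and on no normal array.

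Of 16 tested genes, of 18 listed, that macrophages switch on with interferon gamma or bacterial lipopolysaccharide, 8 were higher and 0 lower. This was 50%, against 42.7% of all tested genes, and Nos2 itself did not pass. The median of the 16 was 2.10, or 1.72 with 3 genes at their bound. Il1b, interleukin 1 beta, rose by 4.64 on the log2 scale (limma adjusted p = 1.96e-05, 2 of 3 normal arrays above background) and Tnf by 2.20 (adjusted p = 1.85e-05). Socs3, an inhibitor of cytokine signalling, rose by 2.25 (adjusted p = 4.99e-06). Acod1, which makes itaconate in activated macrophages, was at least 26.5-fold higher (adjusted p = 9.42e-07).

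Among 17 tested genes, of 19 listed, of the interleukin-4 response and of resolving macrophages, 6 were higher and 3 lower (52.9%), with a median of 0.79, or 0.72 with 2 genes at their bound. Mgl2, a lectin, rose by 1.51 on the log2 scale (limma adjusted p = 6.44e-04). Chil3, a chitinase-like protein, was higher (adjusted p = 7.77e-04), and its fitted difference of 5.20 rests on 1 of 3 normal arrays well above background. Il1rn, the interleukin 1 receptor antagonist, rose by 2.34 (adjusted p = 3.29e-04). Cd209a, a lectin of dendritic cells and resident macrophages, was lower (adjusted p = 2.90e-04), but it was well above background on 3 of the 19 BBN arrays, so that its fitted difference of −4.11 has no exact size. The other lower genes were Retnla (−4.70, limma adjusted p = 0.00283) and Clec10a (−1.84, adjusted p = 0.0431). Retnla was well above background on 10 of the 19 BBN arrays. This list and the previous one both held genes that were higher in BBN bladders. Over all tested genes, 23.7% were called higher and 42.7% in either direction.

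In arginine and polyamine metabolism 6 genes were higher and 1 lower of 15 tested, of 16 listed, with a median of 0.47. This was 46.7%, against 42.7% of all tested genes. The lower gene was Arg2, the mitochondrial arginase, with a median level of −4.55 on BBN arrays, against −0.17, 0.12 and −0.21 on normal arrays. Its probe was well above background on 5 of the 19 BBN arrays, and the log2 difference was −4.55 (limma adjusted p = 5.99e-06), opposite in sign to Arg1. Odc1, which turns ornithine into putrescine, rose by 1.70 (adjusted p = 0.00159) and Srm, spermidine synthase, by 0.94 (adjusted p = 0.00940). Gch1, which makes the cofactor of nitric oxide synthases, rose by 3.45 (adjusted p = 5.10e-07).

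**Figure D5:**
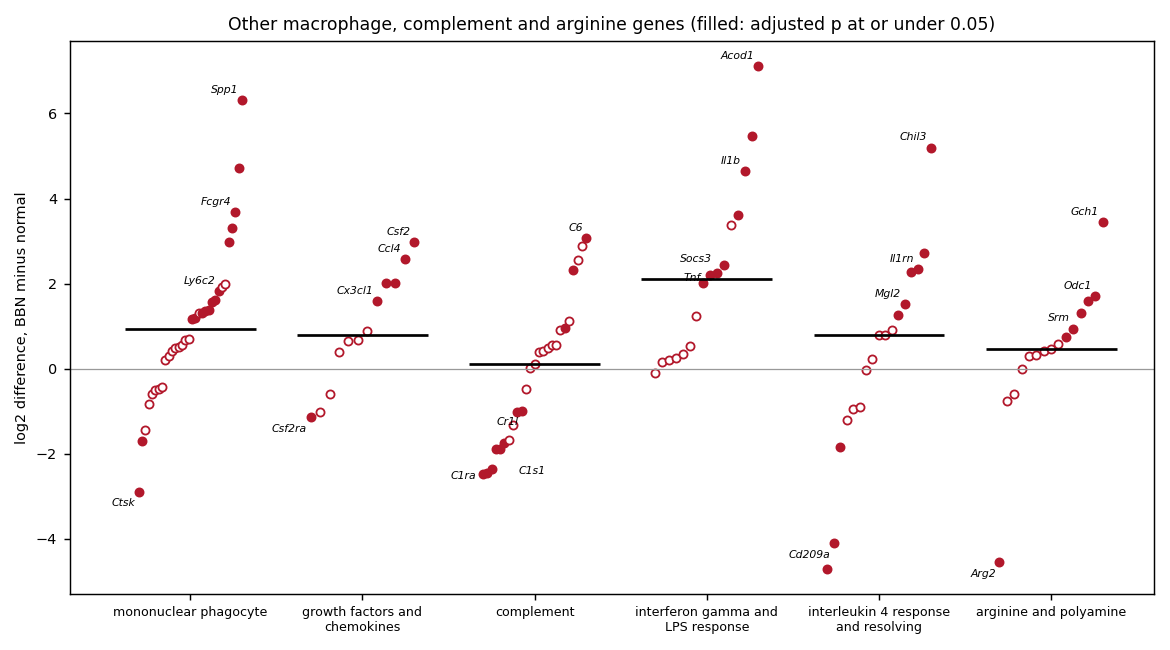
Log2 difference, BBN minus normal, for each tested gene of 6 lists of related genes, with the list median as a bar and filled points where the adjusted p was at or under 0.05. Genes not above background on any normal array are drawn at their measured difference; 13 of 32 phagocyte genes and 8 of 16 interferon gamma and lipopolysaccharide response genes are filled and higher, and 8 of 25 complement genes are filled and lower.

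Markers of other cell types moved with BBN as well, as did 42.7% of all tested genes, and their part in the values above was not tested. Neutrophil markers, cells that can also hold arginase, were 4 higher and 1 lower of 9. S100a9 rose by 8.39 on the log2 scale (limma adjusted p = 7.99e-06) and S100a8 by 6.72 (adjusted p = 2.20e-04). Cxcr2 was at least 6.36-fold higher (adjusted p = 3.81e-04) and Retnlg at least 8.28-fold (adjusted p = 0.00200), each above background on no normal array. Which cells of the bladder gave these signals was not tested. Mpo fell by 1.78 (adjusted p = 0.00914, above background on 11 of the 19 BBN arrays), and Elane, Camp and Ngp did not pass. The summed level of the list ran from 5.57 to 8.30 over the BBN groups and from 5.25 to 6.28 in normal bladders. That sum was nearly all Csf3r in normal bladders (5.21 to 6.26), which did not pass (−0.25). Keratinizing epithelium markers were 6 higher and 1 lower of 7, with summed levels from 6.55 to 10.78 in BBN bladders and from 3.74 to 4.31 in normal bladders. Krt6a rose by 13.0 (adjusted p = 1.09e-09, 2 of 3 normal arrays above background).

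Markers shared by all leukocytes were 2 higher and 1 lower of 6, with summed levels from 2.18 to 4.21 in BBN bladders and from 2.58 to 3.09 in normal bladders. Laptm5 rose by 2.52 (limma adjusted p = 3.23e-04), while Lcp1 fell by 1.11 (adjusted p = 0.0278). Lymphocyte markers were 2 higher and 0 lower of 6 (median 1.72, or 0.67 at the bounds), mast cell markers 2 and 0 of 6 (1.02, or 0.38), and dendritic cell markers 1 and 1 of 6 (−0.01). Of the bladder wall, fibroblast markers were 5 lower of 5 (median −2.39), smooth muscle markers 5 higher of 5 (2.52) and endothelial markers 1 lower of 5 (−0.26). Urothelial markers were 2 higher and 5 lower of 8 (median −4.82).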

How the data were processed

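Total RNA of 22 mouse bladders was measured on 1-colour (Cy3) Agilent arrays. Per the file headers, the deposited intensities are background-subtracted spot signals from version 11.0.1.1 of Agilent Feature Extraction; version 9.1 and the limma package are named per the submitters' processing notes. The authors' deposited normalized table, used as an alternative, holds log2 values that share 1 highest value (18.8) in every column; the sources used here do not give its steps.

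Intensities were log2-transformed and scaled to each array's 75th percentile over non-control spots (59305, of which 53 to 301 outlier-marked ones were dropped). Spots of a probe were averaged and the brightest probe stood for a gene. Testing required a signal well above background on 2 or more arrays. A linear model with 8 group means was fitted in R 4.3.3 with limma 3.58.1 and gave 15 contrasts and an F test, groups within a side weighted alike; the code was tested on simulated data. Adjusted p-values are Benjamini-Hochberg over all tested genes. Python 3.11.15, numpy 2.4.6, pandas 2.3.3, scipy 1.17.1 and matplotlib 3.10.9 did the rest. A fold given as "at least" sets a dim array at its lowest signal well above background, or at the probe's own signal where that is higher. A probe within background can exceed that lowest signal, so "at least" holds under this convention only. The p-value beside such a fold is that of the fitted difference. The number of arrays limits the precision.

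Named are all 10 members, up to 4 genes of smallest p in each list and the 3 genes most correlated with each member; any other gene named was chosen after its values were seen. The members and lists were chosen with earlier results of these data known, and the lists come from general knowledge. The scanner model and the slide were treated as blocks among 14 other settings, beside 22 that leave out 1 array each and 3 chosen after seeing the data.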

Additional observations from a re-analysis of the deposited data

How the results depend on the processing

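Arg1 passed in all 36 alternatives that tested it (log2 difference 7.11 to 11.67), Cd163 in 34 of 36 (−3.15 to −1.21) and C1qc in 24 of 38 (0.79 to 1.33). The count of genes higher, 2 over all arrays, was 1 under normexp correction, quantile normalization, median scaling, the deposited table (8 genes tested), no filter, the strict filter (above background on all 22 arrays, 7 genes tested), slide as a random block, the replicate block, the sex label, and, chosen after seeing the data, Xist minus Y-linked genes as a covariate and without arrays against their sex label; it was 4 with array weights. The count lower, 1, was 0 in the deposited table, with the strict filter and with scanner as a block, and 2 with array weights. The 13 calls of single groups became 0 in the deposited table, 2 with the strict filter and 25 with array weights. Arg1 and Cd163 were not tested in the deposited table, and Arg1, Cd163 and Mrc1 not with the strict filter. Leaving out 1 array gave 1 to 3 higher and 0 to 2 lower. Signs turned for Nos2 (0.10 under normexp, 0.18 with scanner as a block, 0.15 on scanner model 2 alone), Adgre1 (0.07) and Csf1r (0.01), the last pair with scanner as a block. C1qb passed with array weights (0.79) and on scanner model 2 alone (0.95). The cause of these changes was not tested. Replicate numbers did not pair samples (deviations of same-numbered arrays correlated at a median of 0.0275, against −0.00594 for others); the replicate block moved C1qc to 1.06 (adjusted p = 0.0511) and the 13 calls of single groups to 12, losing C1qc in Krt5-Cre R270H (adjusted p = 0.0528). The median over all genes, 0.13, was −0.15 under median scaling, where 2927 genes were higher and 4089 lower, against 4119 and 3313. Correlated pairs numbered 18 to 20 in the 4 alternatives tried. Signal over background limits Cd163 in BBN and Arg1 in normal bladders.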

Other observations

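Over the 19 BBN arrays, Arg1 was compared with the mean level of 10 marker lists, a relation chosen after the data were seen. The keratinizing epithelium list (Krt6a, Krt16, Krt10, Krt1, Ivl, Lor and Sprr3) gave the highest Pearson r, 0.62 (rho = 0.48, permutation p = 0.00736 and 0.0390), which did not pass adjustment over the 10 lists (adjusted p = 0.0736). Within scanner models 1 and 2 r was 0.50 and 0.72. The value leans on Krt5-Cre R172H replicate 3, which was lowest of the 19 BBN arrays in both Arg1 (−0.22) and the mean marker level (0.85), and without the 2 arrays farthest from the median r was 0.34.

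Neutrophil markers gave r = 0.32 with Arg1 (rho = 0.43, adjusted permutation p = 0.591 for r), and the markers of all leukocytes gave r = −0.16 (rho = −0.18, adjusted permutation p = 0.637 for r).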
